A study of Homo sapiens with 17 samples.

Results

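The 10 genes described here belong to the activin, bone morphogenetic protein (BMP) and SMAD pathway: the ligand genes INHBA, INHBB, BMP4 and BMP7, the receptor genes ACVR2A and ACVR1B, the inhibitory SMAD gene SMAD7, and the target genes ID1, ID2 and ID3. They were chosen by name, and all 10 were found among the 60662 genes of the count table. RNA-seq was carried out on Ishikawa cells, an established line from a human endometrial adenocarcinoma that is used as a model of the endometrial epithelium, with total RNA libraries read as single-end 75 bp reads. The 11 libraries with a group came from 3 cultures in control medium without treatment (Control), 2 cultures given a vehicle named Nap in the labels (Nap), 3 cultures given Nap and 70% ethanol (VC) and 3 cultures given Nap and progesterone (P4), the treatments lasting 24 h. All cultures grew in medium with charcoal-stripped serum, and all are from 1 carcinoma line, so that they are replicates of a culture and not of a person. The labels do not say what Nap stands for, they do not tie a progesterone dose to these cultures, and they name ethanol for the VC cultures only, so that the 2 groups can differ by either agent. Another 6 libraries, from cells given recombinant PSAT1 with or without progesterone, have sample names that contradict their column names, and they entered no comparison.

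Activins are dimers of inhibin beta subunits that bind a type II receptor such as ACVR2A, which then activates a type I receptor such as ACVR1B. BMPs use type I and type II receptors of the same family. The receptors phosphorylate SMAD2 and SMAD3 on the activin side and SMAD1, SMAD5 and SMAD9 on the BMP side, and these enter the nucleus with SMAD4. SMAD7 is induced by both branches and blocks the receptors, and the ID genes, which encode inhibitors of basic helix-loop-helix transcription factors, are classical BMP targets. In the endometrium the pathway is known for its part in epithelial and stromal preparation for the embryo.

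The promoters of SMAD7, ID1 and ACVR1B are shown because SMAD7 and ID1 were called higher after progesterone and ACVR1B was not, and because these windows hold at least 200 bases outside any annotated exon. Each is the stretch upstream of a RefSeq start on GRCh38.p14, cut where the first annotated exon begins. Capitals mark every match, on either strand, of GGCGCC and CAGAC, which resemble the letters SMAD proteins bind, of AGAACA, a half-site of steroid hormone receptors, of CCAAT, and of TATAAA.
SMAD7 (minus strand, chr18:48949334-48949583): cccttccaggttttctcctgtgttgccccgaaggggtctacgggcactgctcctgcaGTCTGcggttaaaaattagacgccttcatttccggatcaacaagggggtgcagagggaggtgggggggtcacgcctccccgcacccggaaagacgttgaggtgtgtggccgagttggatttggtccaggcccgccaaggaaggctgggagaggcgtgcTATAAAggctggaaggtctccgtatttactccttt
ID1 (plus strand, chr20:31605039-31605282): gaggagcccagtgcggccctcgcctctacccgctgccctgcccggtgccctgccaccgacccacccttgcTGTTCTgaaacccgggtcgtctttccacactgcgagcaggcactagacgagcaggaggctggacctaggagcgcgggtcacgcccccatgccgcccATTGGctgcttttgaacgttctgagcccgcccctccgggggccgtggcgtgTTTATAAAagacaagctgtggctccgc
ACVR1B (plus strand, chr12:51951449-51951666): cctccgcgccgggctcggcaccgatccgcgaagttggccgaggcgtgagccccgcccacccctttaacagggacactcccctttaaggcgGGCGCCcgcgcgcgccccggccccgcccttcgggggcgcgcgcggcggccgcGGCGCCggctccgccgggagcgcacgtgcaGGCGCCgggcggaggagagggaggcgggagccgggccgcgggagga

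The SMAD7 stretch, which precedes one of its 3 starts in the RefSeq table, held 1 match of CAGAC and 1 of TATAAA. The ID1 stretch held 1 match each of CCAAT and AGAACA and 2 overlapping matches of TATAAA. The ACVR1B stretch held 3 matches of GGCGCC and none of the other motifs, and the stretch before its second start in the table, at chr12:51953134-51953379, which is not printed, held 1 match each of CAGAC and AGAACA. The stretch before another SMAD7 start, at chr18:48942808-48943057, held no match. Among the 250 bases before the start in 34943 RefSeq promoters, GGCGCC was found in 16.4%, CAGAC in 38.0%, AGAACA in 12.4%, CCAAT in 32.0% and TATAAA in 10.8%. In the same 250-base window, ID2 held 3 matches of CCAAT and ID3 held 1 match of CAGAC. The window before the remaining SMAD7 start, at chr18:48950966-48951215, held 2 matches of CAGAC. These windows of ID2, ID3 and SMAD7 overlap annotated exons and are not printed. These matches are a description of the letters and not of binding.

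Sequencing depth was lowest in VC replicate 1, with 4999521 counts over all genes, and ran from 10786880 to 19704493 counts in the other libraries with a group. All 6 epithelial markers listed for the check had more than 3 counts in every library, and their summed level was 1217 to 1261 CPM (the read count scaled by library size, here with TMM over all libraries) in VC and 951 to 1089 CPM in P4. Of the markers of other cell types, 3 of 4 immune and 2 of 3 endothelial genes were at or under 3 counts in every library, while 3 of 5 stromal fibroblast genes were above that in every library, with a summed level of 67.8 to 92.2 CPM in VC and 65.6 to 76.2 CPM in P4. The part of these marker levels in the results below was not tested. A gene was called where edgeR's quasi-likelihood test gave an adjusted p under 0.05 (Benjamini-Hochberg over all genes tested). In bulk libraries, fewer cells of a type and less RNA per cell cannot be told apart.

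The question of the first comparison was how progesterone changed these genes relative to the ethanol vehicle. The target genes ID1, ID2 and ID3, the inhibitory SMAD gene SMAD7 and the type II receptor gene ACVR2A rose in P4, the ID genes and SMAD7 by 2.79 to 7.90-fold and ACVR2A by 1.36-fold. The ligand gene BMP4 and the type I receptor gene ACVR1B were not called by edgeR. INHBA, INHBB and BMP7 had too few counts to enter the test. Of the 7 members tested, 5 were called higher and 0 lower, where 53.0% of all 16540 genes tested were called, 26.6% higher and 26.5% lower. The median log2 fold change was 1.48 over the 7 tested members and -0.01 over all genes tested.

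**Figure D1:**
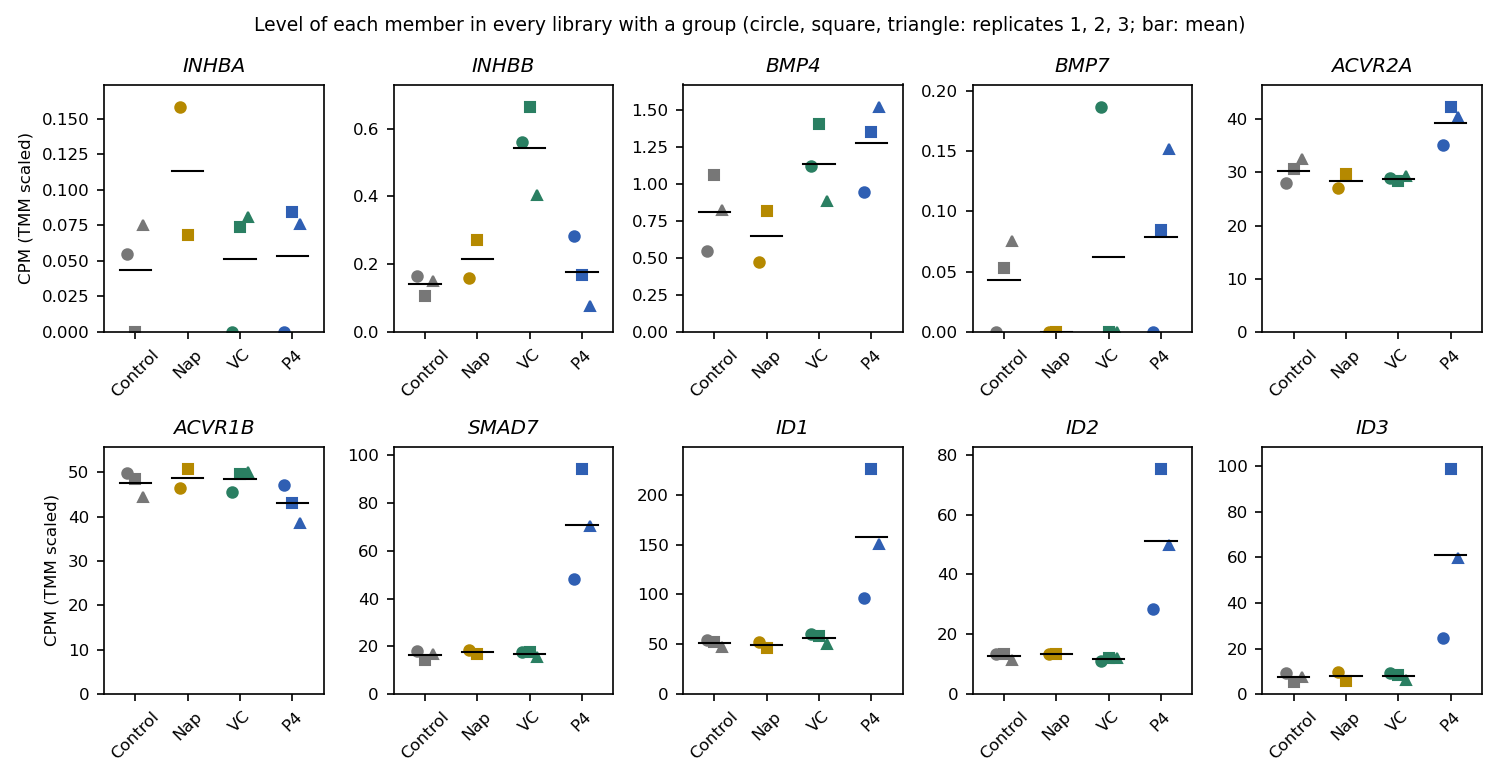
CPM (TMM scaled, linear axis from 0, a scale of its own in each panel) of the 10 members in the 11 libraries with a group; points are libraries, their shape gives the replicate number and bars are group means. The P4 libraries of ACVR2A, SMAD7, ID1, ID2 and ID3 lie above every library of the other groups, and no library of any group exceeds 0.158 CPM for INHBA or 0.186 CPM for BMP7.

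ID3 (ENSG00000117318.9, chr1:23557918-23559794 on GRCh38, minus strand) stood at 9.32, 8.33 and 6.20 CPM in the VC replicates 1 to 3 and at 24.7, 98.7 and 59.9 CPM in the P4 replicates. All P4 libraries were above all VC libraries, with a spread among the P4 replicates of several-fold. The log2 fold change was 2.98 ± 0.62 (SE, n = 3 and 3, edgeR adjusted p = 0.011).

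ID2 (ENSG00000115738.10, chr2:8678845-8684453, plus strand) was measured at 11.2, 12.1 and 12.0 CPM in VC and at 28.3, 75.2 and 49.8 CPM in P4. The VC replicates were close to each other and the P4 replicates were all higher. The log2 fold change was 2.11 ± 0.38 (SE, edgeR adjusted p = 0.0042). ID2-AS1, an antisense gene that overlaps ID2, had 23 to 60 counts in the libraries with a group, and since the strand setting of the counting was not given in the sources used here, reads of the 2 genes may not be fully apart.

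ID1 (ENSG00000125968.9, chr20:31605283-31606515, plus strand) was measured at 60.7, 58.6 and 50.2 CPM in VC and at 96.0, 226 and 150 CPM in P4. The lowest P4 library was above the highest VC library. The log2 fold change was 1.48 ± 0.33 (SE, edgeR adjusted p = 0.013), and without the filter on low counts the adjusted p was 0.059, so that ID1 was then not called.

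SMAD7 (ENSG00000101665.9, chr18:48919853-48952052, minus strand) was measured at 17.5, 17.8 and 15.5 CPM in VC and at 48.3, 94.2 and 70.6 CPM in P4. Each P4 library was above each VC library. The log2 fold change was 2.07 ± 0.23 (SE, edgeR adjusted p = 7.6e-05).

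ACVR2A (ENSG00000121989.15, chr2:147844517-147930826, plus strand), an activin type II receptor, was measured at 28.9, 28.4 and 29.3 CPM in VC and at 35.1, 42.3 and 40.4 CPM in P4. The groups did not overlap, and the VC libraries were within 1 CPM of each other. The log2 fold change was 0.44 ± 0.09 (SE, edgeR adjusted p = 0.0015). The span of ACVR2A overlaps ORC4 on the opposite strand, which had 251 to 893 counts. Of the 7 members tested, 5 had P4 and VC groups that did not overlap: ACVR2A, SMAD7, ID1, ID2 and ID3, all upwards. Among all genes tested, 59.9% had groups that did not overlap, in either direction. INHBB, which was not tested, did not overlap downwards.

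ACVR1B (ENSG00000135503.13, chr12:51951667-51997078, plus strand), an activin type I receptor gene, was measured at 45.7, 49.5 and 50.1 CPM in VC and at 47.2, 43.2 and 38.6 CPM in P4. The ranges overlapped and the log2 fold change was -0.19 ± 0.09 (SE, edgeR adjusted p = 0.10). Upper-quartile scaling gave -0.27 with an adjusted p of 0.026, and leaving out P4 replicate 1 gave -0.26 with an adjusted p of 0.0097, so that the call depended on the setting.

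BMP4 (ENSG00000125378.16, chr14:53949736-53958761, minus strand) was low, at 1.12, 1.40 and 0.886 CPM in VC and 0.947, 1.35 and 1.52 CPM in P4. These overlapping values gave a log2 fold change of 0.16 ± 0.32 (SE, edgeR adjusted p = 0.69). INHBB, the inhibin beta B subunit of activin B, had 3, 9 and 5 counts in VC and 1 to 3 counts in P4, which did not overlap in CPM but were under the minimum for the test. When all genes were kept, its log2 fold change was -1.6 ± 0.71 (SE, edgeR adjusted p = 0.082). INHBA, the beta A subunit of activin A, and BMP7 had 0 to 2 counts in every library with a group, so that no difference was detectable at this depth.

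**Figure D2:**
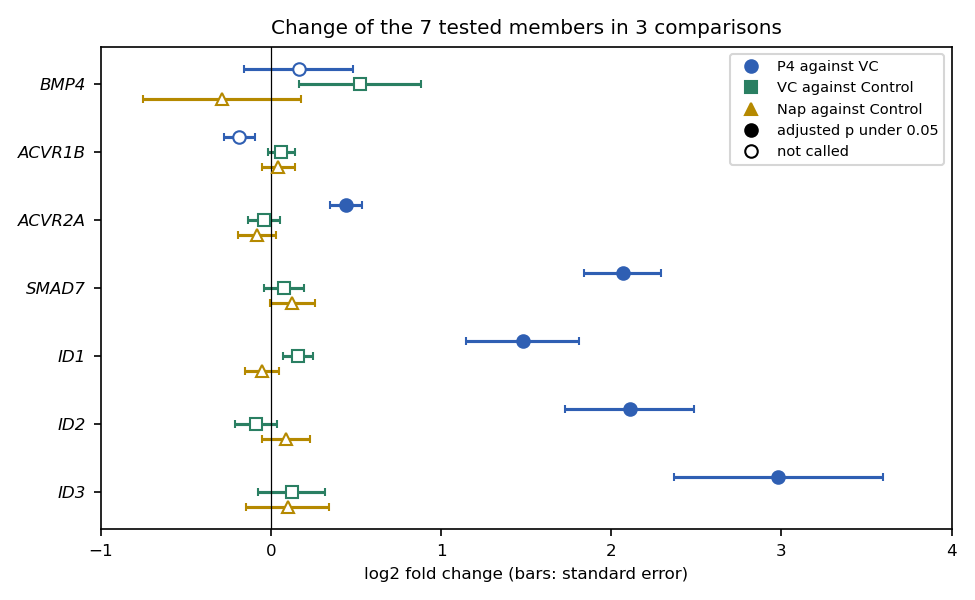
Log2 fold change (points, with bars of 1 SE) of the 7 tested members in P4 against VC, VC against Control and Nap against Control; filled symbols had an adjusted p under 0.05. The filled symbols belong to P4 against VC and run from 0.44 for ACVR2A to 2.98 for ID3, and every symbol of the other comparisons is open.

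The size of the rise differed among the 3 P4 cultures, and it did so in the same order for each member that rose. Relative to the VC mean, P4 replicate 1 was 2.85-fold for SMAD7, 1.70-fold for ID1, 2.41-fold for ID2 and 3.11-fold for ID3. P4 replicate 2 was 5.55-fold for SMAD7, 3.99-fold for ID1, 6.39-fold for ID2 and 12.4-fold for ID3, and P4 replicate 3 lay between them. Of the 5 members called, 5 were lowest in replicate 1 and highest in replicate 2, an order shown by 49.1% of the 4397 genes called higher in this comparison. When each library was left out in turn, the log2 fold change ran from 2.48 to 3.36 for ID3, from 1.73 to 2.39 for ID2, from 1.82 to 2.28 for SMAD7, from 1.14 to 1.74 for ID1 and from 0.39 to 0.52 for ACVR2A, and each of the 5 was called each time. The largest adjusted p among these refits was 0.043, for ID3.

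**Figure D3:**
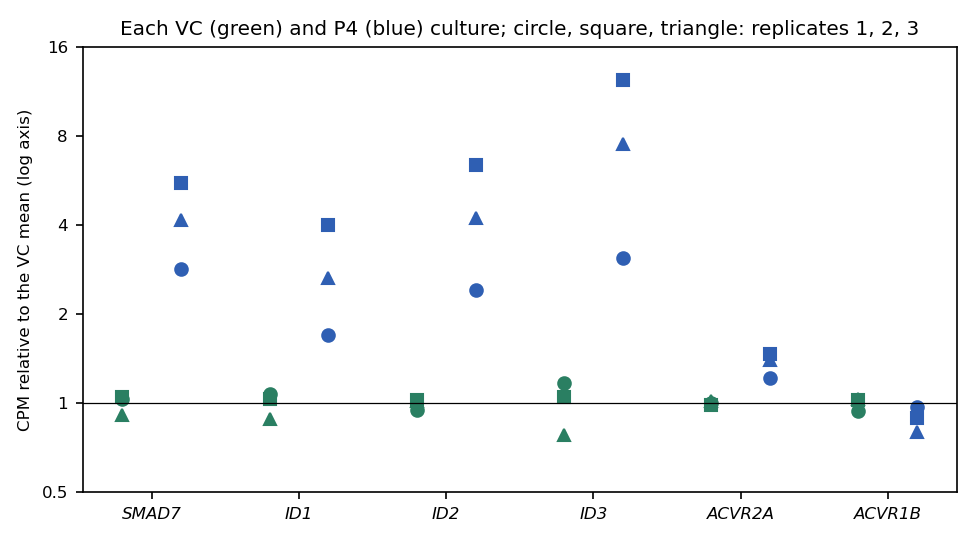
CPM of 6 members in each VC culture (green) and P4 culture (blue), divided by the VC mean of that member, on a log axis; circles, squares and triangles are replicates 1, 2 and 3. For SMAD7, ID1, ID2 and ID3 the circle is the lowest P4 point and the square the highest, from 1.70-fold for ID1 in replicate 1 to 12.4-fold for ID3 in replicate 2.

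Levels were compared between genes per kilobase of exon (RPKM, on the TMM scale). In VC, ID1 was highest at 40.7 to 49.3 RPKM, followed by ACVR1B at 8.02 to 8.80 RPKM and ID2 at 5.07 to 5.48 RPKM. ID3, at 3.45 to 5.19 RPKM, overlapped ID2, ACVR2A at 4.19 to 4.33 RPKM and SMAD7 at 3.09 to 3.55 RPKM, so that these neighbours were not separated beyond their spread. In P4, ID1 reached 77.9 to 183 RPKM, ID3 13.8 to 54.9 RPKM, ID2 12.8 to 34.1 RPKM and SMAD7 9.59 to 18.7 RPKM, whereas ACVR1B was at 6.79 to 8.29 RPKM and ACVR2A at 5.19 to 6.25 RPKM. ID1 thus stayed first in both groups, and ACVR1B moved from the second place to below SMAD7.

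The fourth gene of the ID family, ID4, which was not among the members, rose as well. It was measured at 47.5, 42.8 and 44.8 CPM in VC and at 284, 472 and 389 CPM in P4. Its log2 fold change was 3.09 ± 0.17 (SE, edgeR adjusted p = 5e-07). Of the summed RPKM of ID1 to ID4, ID1 made up 61.2% ± 1.8 (SD, n = 3) in VC and 36.2% ± 2.2 in P4, and ID4 made up 25.8% ± 1.9 in VC and 48.2% ± 5.6 in P4. The ranges of the groups did not overlap for either gene, and these shares were not tested.

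**Figure D4:**
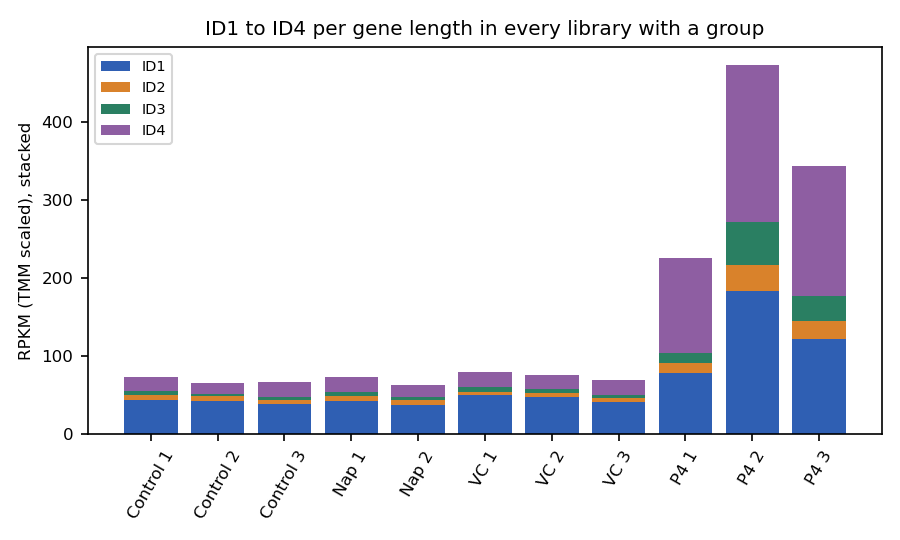
RPKM (TMM scaled) of ID1, ID2, ID3 and ID4, stacked, in each library with a group. The 3 P4 bars stand above all others, and in them ID4 rather than ID1 is the largest part, with a mean of 48.2% against 36.2%.

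The same question was asked with the other reference groups, which share the P4 libraries and so are not independent of it. Against Control, the log2 fold change was 3.09 for ID3, 2.01 for ID2, 2.13 for SMAD7, 1.63 for ID1 and 0.39 for ACVR2A, and against Nap it was 2.99, 1.92, 2.01, 1.69 and 0.47 in that order. All 5 were called against either reference, where 54.8% and 49.7% of all genes tested were called. BMP4 was at 0.68 against Control (edgeR adjusted p = 0.10) and at 0.96 against Nap (edgeR adjusted p = 0.068), and was not called.

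The second comparison set the complete vehicle, Nap with ethanol, against untreated cells, so that it does not separate the 2 agents. By edgeR 0 of the 7 tested members were called between VC and Control, 0 had an unadjusted p under 0.05 and DESeq2 also called 0, where 22.6% of 16673 genes tested were called, 11.9% higher and 10.7% lower. The ranges of VC and Control overlapped for 9 of the 10 members, INHBB being the exception, and 39.4% of all genes tested had ranges that did not overlap. SMAD7 stood at 17.9, 14.3 and 17.0 CPM in Control and ID1 at 54.4, 52.1 and 47.2 CPM, both within or near the VC values above. ID2 was at 13.6, 13.5 and 11.3 CPM and ID3 at 9.18, 5.28 and 7.42 CPM in Control. The receptor genes were as close, with ACVR2A at 27.9, 30.6 and 32.5 CPM and ACVR1B at 49.9, 48.5 and 44.4 CPM. With Nap in place of Control as the reference, an alternative added after seeing the data that leaves ethanol as the labelled difference, edgeR again called 0 of 7 members, where 23.8% of 16935 genes tested were called. The lowest adjusted p among the members was then 0.070, for ID1 at a log2 fold change of 0.22 ± 0.09 (SE).

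The largest log2 fold change among the 7 tested members against Control was 0.52 ± 0.36 for BMP4 (SE, edgeR adjusted p = 0.31), which stood at 0.546, 1.06 and 0.825 CPM in Control. INHBB had 2 or 3 counts in each Control library against 3, 9 and 5 in VC, and with all genes kept its log2 fold change was 1.9 ± 0.68 (SE, edgeR adjusted p = 0.048).

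The third comparison set the Nap vehicle against Control. By edgeR and by DESeq2 0 members were called, and 0 of the 7 tested had an unadjusted p under 0.05. Of the 17166 genes tested, 0.00% were called by edgeR, with 217 at an unadjusted p under 0.05 and 1 gene called by DESeq2. In the Nap replicates 1 and 2, SMAD7 was at 18.7 and 16.7 CPM, ID1 at 51.8 and 46.2 CPM, ID2 at 13.5 and 13.6 CPM and ID3 at 9.66 and 5.90 CPM. ACVR2A was at 27.0 and 29.7 CPM, ACVR1B at 46.5 and 50.7 CPM and BMP4 at 0.475 and 0.814 CPM. The Nap and Control ranges overlapped for each of the 10 members, where 12.2% of all genes tested had ranges that did not overlap, and 2 Nap cultures limit the size of a difference that could be detected.

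The rest of the pathway was followed with a list of 103 other genes in 10 roles. In P4 against VC, 65 of them were tested, of which 28 were called higher and 18 lower, that is 70.8% of those tested beside 53.0% of all genes. Their median log2 fold change was 0.11, beside -0.01 over all genes tested. Under upper-quartile scaling, which moved the median of all genes to -0.10, 25 were called higher and 19 lower.

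Among ligands of the activin, nodal and TGF-beta type, 3 of 7 tested rose and 3 fell. GDF15, a stress-induced divergent member of the family, rose from 3.68 ± 0.29 CPM in VC to 134 ± 18.7 CPM in P4 (SD over 3 libraries). Its log2 fold change was 5.16 ± 0.13 (SE, edgeR adjusted p = 1.4e-10). INHBE, the inhibin beta E subunit, rose from 18.4 ± 0.64 to 107 ± 7.8 CPM, which is 2.53 on the log2 scale. GDF11, a ligand that signals through activin receptors, fell by 0.96 and TGFB3 fell by 0.64 on the log2 scale. TGFB1, the other that fell, was not called against Control (log2 fold change 0.0509, edgeR adjusted p = 0.8) or Nap (0.227, edgeR adjusted p = 0.29). Among the BMP type ligands, 3 of 4 tested fell and 0 rose. They included AMH, the anti-Müllerian hormone, which fell from 2.91 ± 0.75 to 1.01 ± 0.058 CPM, and BMP5, which fell from 1.06 ± 0.20 to 0.202 ± 0.19 CPM. BMP5 rested on 5, 13 and 16 counts in VC and 4, 0 and 3 in P4. Against Control, and likewise against Nap, 3 BMP type ligands were tested and 1 was called lower. The other fall in P4 against VC, BMP8B, was not called by DESeq2 (adjusted p = 0.15) or without the filter (edgeR adjusted p = 0.071). Its call was also lost without VC replicate 2 (edgeR adjusted p = 0.081), VC replicate 3 (0.1) or P4 replicate 3 (0.11), and against Control (0.15) or Nap (0.78). Without the filter, BMP2 was called higher (edgeR adjusted p = 0.046), on 4 counts or fewer, and BMP3 lower (0.014).

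Among the type I receptors, 2 of 5 tested fell and 0 rose: ACVR1C, a type I receptor of nodal, fell by 1.36 on the log2 scale and TGFBR1 fell by 0.23. The call of TGFBR1 was lost under DESeq2 (adjusted p = 0.075), without the filter (edgeR adjusted p = 0.077) and without VC replicate 1 (edgeR adjusted p = 0.054). ACVR1 was called higher without P4 replicate 1 (0.279, edgeR adjusted p = 0.02). It was also called higher against Control (0.617, edgeR adjusted p = 0.00081) and Nap (0.691, edgeR adjusted p = 0.0022). However, ACVR1 was already called higher in VC against Control. It stood at 17.5, 14.0 and 17.2 CPM in Control and at 20.7, 22.1 and 22.2 CPM in VC. The P4 replicates were at 20.6, 28.5 and 24.7 CPM. BMPR1B was called lower against Control (-0.578, edgeR adjusted p = 0.0033) and Nap (-0.709, edgeR adjusted p = 0.0035). Of 3 type II receptors tested, ACVR2B, the second activin type II receptor, rose by 0.63 ± 0.09 and BMPR2 by 0.18 ± 0.07, and TGFBR2 fell by 0.53 on the log2 scale. BMPR2 was not called under upper-quartile scaling, without the filter, or without VC replicate 1, 2 or 3 or P4 replicate 2 (edgeR adjusted p from 0.052 to 0.26), so that only ACVR2B of this role then rose. The 2 activin type II receptor genes therefore rose together, by 0.44 and 0.63, and ACVR1C fell. Of the co-receptors, RGMB rose by 0.74 and TGFBR3 fell by 0.44. TGFBR3 was not called under DESeq2 (adjusted p = 0.067) or without VC replicate 2, VC replicate 3 or P4 replicate 2 (edgeR adjusted p from 0.068 to 0.098).

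Of the other 7 SMAD genes, 5 rose and 0 fell. SMAD9, a BMP-side SMAD, rose from 7.31 ± 1.7 to 22.5 ± 3.2 CPM (SD over 3 libraries), or by 1.56 ± 0.16 in log2 units (SE, edgeR adjusted p = 5.5e-06). SMAD4, the common partner, rose from 84.2 ± 3.8 to 144 ± 13 CPM, or by 0.77 ± 0.08 in log2 units (SE, edgeR adjusted p = 6.4e-06). SMAD6, the BMP-side inhibitory SMAD and the closest relative of SMAD7, was named after its value was seen, and rose by 0.94 ± 0.21 (SE, edgeR adjusted p = 0.0038), with the call lost with all 4 groups in the fit (edgeR adjusted p = 0.057) and against Control (0.075) or Nap (0.11). Of 14 regulators of SMAD activity, 9 rose and 3 fell. ZFYVE9, which presents SMADs to the receptors, rose by 0.90 and PPM1A, a phosphatase of SMADs, by 0.87, while ZNF423, a partner of SMADs at BMP targets, fell by 0.57 and PMEPA1, which restrains SMAD signalling, fell by 0.41. Leaving out VC replicate 2 or P4 replicate 3 left 1 of the 3 falls, ZNF423, as PMEPA1 (edgeR adjusted p = 0.073 and 0.052) and SKI (0.093 and 0.071) were then not called. SKI was also not called without VC replicate 3 (edgeR adjusted p = 0.055), nor PMEPA1 by DESeq2 (adjusted p = 0.081). The fall of SKI was relative to VC only. It stood at 31.4, 40.1 and 34.2 CPM in P4, above every Control library (30.8, 25.4 and 21.8 CPM) and every Nap library. Against Control, 9 of the 14 regulators were called higher and 2 lower, and against Nap 8 were called higher and 2 lower.

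Of the 8 secreted or membrane antagonists tested, 2 rose and 2 fell. CHRD, which binds BMPs, rose by 1.75 and FSTL3, which binds activins, rose by 0.57, while the BMP antagonist GREM1 fell by 1.56 and TWSG1 fell by 0.37. FSTL3 was not called without VC replicate 3 (edgeR adjusted p = 0.070), without P4 replicate 3 (0.053) or against Control (0.10) or Nap (0.18), and GREM1 was not called by DESeq2 (adjusted p = 0.088). Under upper-quartile scaling NBL1 also fell, so that 3 antagonists did. Against Control 1 antagonist was called higher and 4 lower, and against Nap 2 higher and 3 lower. NBL1 was called lower against Control (-0.542, edgeR adjusted p = 0.0043) and Nap (-0.468, 0.026), and SOSTDC1 against Control (-0.631, 0.018). FST, not called in the main fit, was called higher without the filter (1.43, edgeR adjusted p = 0.026) and against Nap (2.34, 0.0059). Its counts were 12, 12 and 10 in P4 and 3, 6 and 2 in VC. Among 9 genes of processing and latency, PCSK5 alone rose in P4 against VC, by 0.79, and 3 fell. THBS1 fell by 0.62, and FURIN fell by 0.46 and was not called against Nap (edgeR adjusted p = 0.059). LTBP1, the other that fell, was not called against Control (edgeR adjusted p = 0.12) or Nap (0.082). Against Control 4 genes of this role were called higher and 2 lower, and against Nap 4 higher and 1 lower. LTBP2, LTBP3 and LTBP4, also called higher in VC against Control, were called higher in P4 against both references. Of the 6 other target genes tested, 5 rose and 0 fell, with ID4 first and TGFBI, a TGF-beta induced matrix protein, at 0.45 ± 0.07. Under upper-quartile scaling, 4 of these 6 target genes and 8 of the 14 regulators rose, without HEY1 (edgeR adjusted p = 0.053) and SMURF1 (0.11). HEY1 was also not called without VC replicate 1, 2 or 3 or P4 replicate 2 (edgeR adjusted p from 0.076 to 0.15). SMURF1 was also not called without VC replicate 1, 2 or 3 or P4 replicate 2 or 3 (edgeR adjusted p from 0.073 to 0.087) or against Nap (0.071). The regulator STRAP was not called against Control (edgeR adjusted p = 0.13) or Nap (0.077).

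**Figure D5:**
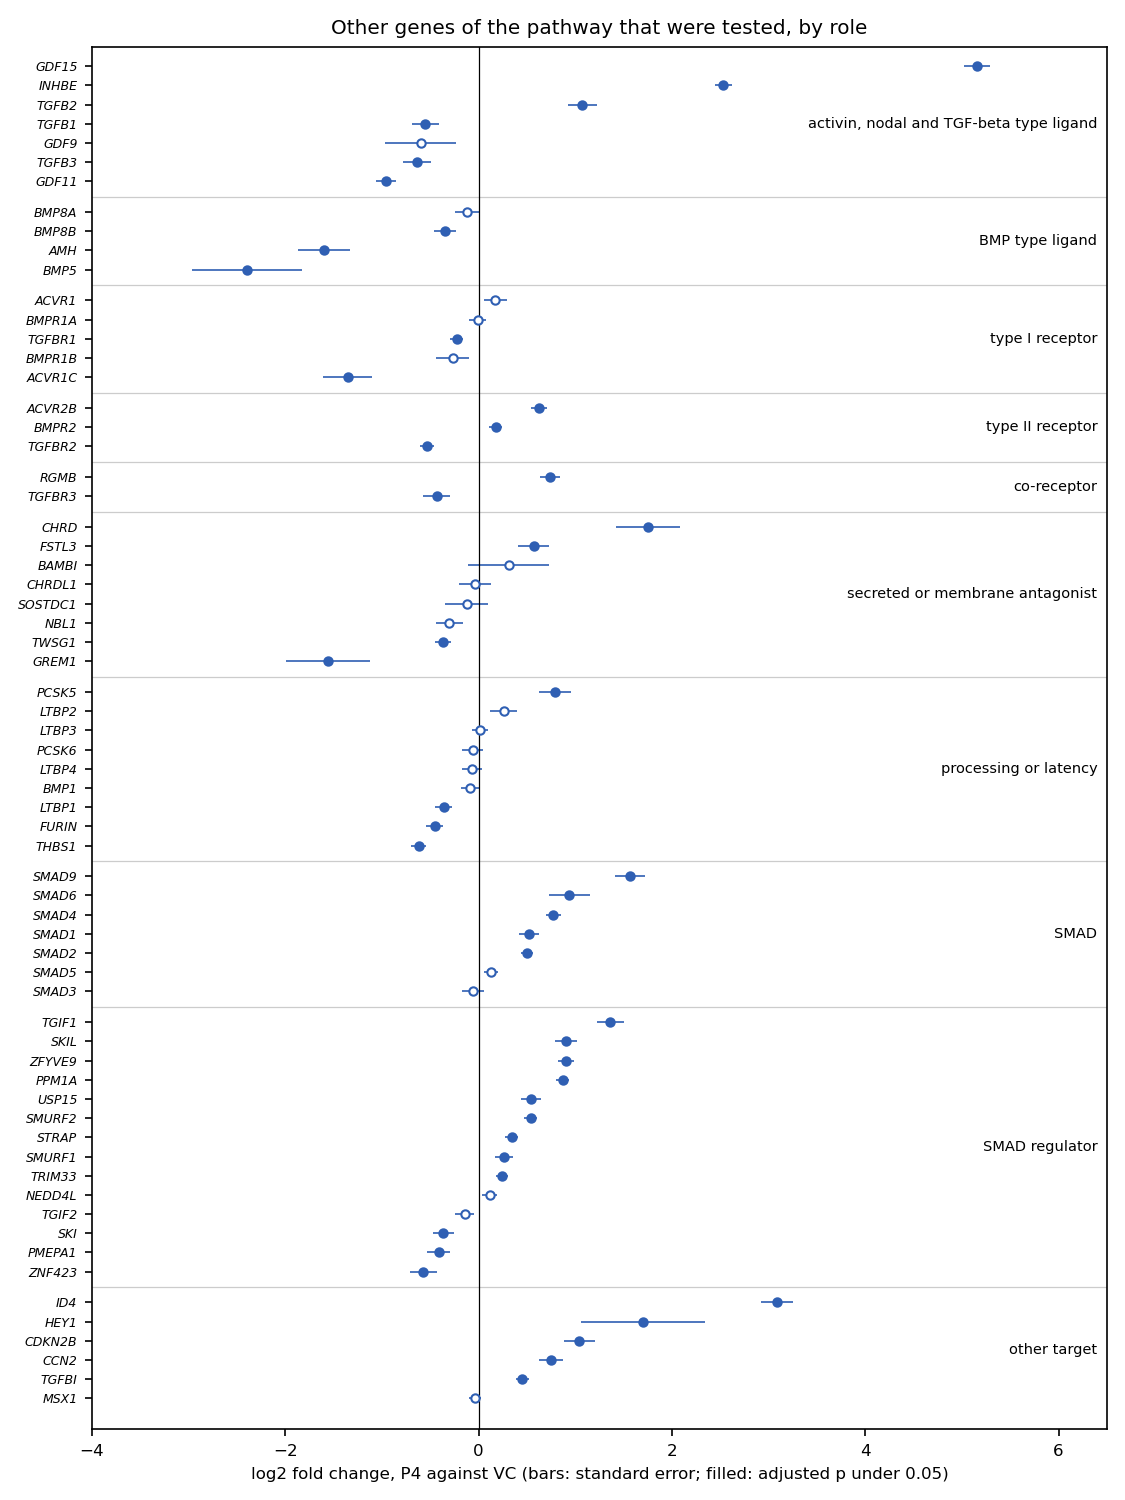
Log2 fold change in P4 against VC of the 65 other pathway genes tested (points, bars of 1 SE), grouped by role; filled points had an adjusted p under 0.05. GDF15 lies farthest to the right at 5.16, the BMP type ligands lie left of 0, and 5 of 7 SMAD genes lie right of 0 as filled points.

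In VC against Control, 66 genes of the list were tested, of which 10 were called higher and 3 lower, that is 19.7% beside 22.6% of all genes. Of the 7 SMAD genes, edgeR and DESeq2 called 0, and SMAD3 had an unadjusted p under 0.05. Without Control replicate 2 the list gave 11 higher and 7 lower calls, with SMAD6 at -0.40 (edgeR adjusted p = 0.017) and the regulators STRAP, PPM1A and PMEPA1 among the lower ones. In Nap against Control, edgeR and DESeq2 called 0 genes of the list, and 2 of 66 had an unadjusted p under 0.05.

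The genes whose pattern was most like that of a member were sought among 12543 protein-coding genes, by the root mean square difference of centred log2 CPM over the 11 libraries with a group. ID1 was nearest to ARFGAP3, at 0.10, and RUSC2, at 0.14. SMAD7 was nearest to NEDD4, at 0.14, and DLC1, at 0.14, and DLC1 was also nearest to ID2, at 0.18, before BHLHE40, at 0.19. ID3 had no gene so close, with ANKRD1 at 0.28 and KLF4 at 0.35. The nearest to ACVR2A were PKN2, at 0.049, and BBX, at 0.051, those to ACVR1B were TNFAIP1, at 0.056, and LRPAP1, at 0.057, and those to BMP4 were PLAG1 and ATXN7L2, both at 0.22. All these distances are over libraries that share the same treatments.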

How the data were processed

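RNA-seq counts of 17 Ishikawa libraries were used, 11 of them with a group from the labels, and the number of count columns not used was 0. The authors trimmed reads with Cutadapt, filtered them by quality, mapped them with Subread and deposited raw gene counts made by featureCounts on GENCODE release 31; tool versions and the strand setting are not given in the sources used here. The authors' own tests used DESeq2. Depth ran from 4999521 to 19704493 counts per library with a group, and low counts set the precision.

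Genes were named from GENCODE 29 on GRCh38 (43928 of 60662 with the same version). In edgeR 4.0.16 (R 4.3.3), only the groups compared entered each fit, with TMM scaling, filterByExpr at a minimum count of 10, robust quasi-likelihood tests and Benjamini-Hochberg adjustment over all genes tested. Genes were called at an adjusted p under 0.05. DESeq2 1.42.0, other scalings and filters, all groups fitted together, blocking on the replicate number, leaving out each library and other references for P4 were the alternatives; Nap as the reference for VC was added after seeing the data. The statistics were tested on simulated counts, and tables and figures were made with Python 3.11.15. RPKM used the summed exon length of each gene. Promoters came from a RefSeq table that held 9 of the 10 members (not BMP7).

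The members, the pathway list and the tests were chosen with earlier results of these data known. Of the 103 other pathway genes, all found in the table, the text names in each role the 2 lowest adjusted p-values among higher and among lower calls in P4 against VC, and for each tested member the 2 protein-coding genes of nearest pattern with a mean of at least 1 CPM. The labels call the replicates biological, and p-values measure the spread between these cultures.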

Additional observations from a re-analysis of the deposited data

Results flagged for a closer look

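The 6 libraries left without a group have sample names and column names that give opposite accounts of progesterone. For 9 of the 10 members at least 1 of them was above the highest Control library, ACVR1B being the exception. This sets the highest of 6 libraries against the highest of 3, which favours the 6. The share over all genes was not computed, so that the count is not a result about the members. The highest of these 6 libraries stood at 80.61 CPM for SMAD7, 189.8 CPM for ID1, 60.31 CPM for ID2, 77.07 CPM for ID3, 43.97 CPM for ACVR2A, 1.63 CPM for BMP4, 0.2717 CPM for INHBB, 0.1343 CPM for INHBA and 0.09058 CPM for BMP7, the last 3 on 4 counts or fewer. Of the 6 libraries, 6 were above the highest Control library for SMAD7, 4 each for ID1, BMP4 and INHBB, 3 each for ID2, ID3 and ACVR2A, 2 for INHBA and 1 for BMP7. The highest Control library stood at 1.06 CPM for BMP4 and 0.164 CPM for INHBB. For ID3, the columns named with P4 held 51.3, 71.1 and 77.1 CPM and the columns named without it held 6.67, 5.51 and 7.48 CPM, while the sample names give the reverse. For SMAD7 the same columns held 65.6, 80.6 and 73.3 CPM and 20.3, 19.0 and 19.9 CPM. Which name is right was not tested.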

How the results depend on the processing

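Of 284 recomputed log2 fold changes of the members, 268 kept their direction and their side of the threshold, 1 lost the call, 2 gained it and 13 changed sign. The call lost was ID1 in P4 against VC without the filter (adjusted p = 0.059), and those gained were of ACVR1B in P4 against VC, at -0.27 under upper-quartile scaling and -0.26 without P4 replicate 1. Upper-quartile scaling moved the share of higher calls among all genes from 50.1% to 40.7% in P4 against VC. None of the values that changed sign was called: over the fits that leave out a library, BMP4 in P4 against VC ran from -0.0331 (without VC replicate 3) to 0.405. In VC against Control, SMAD7 ran from -0.0224 to 0.149 and ID3 from -0.0924 to 0.335, both lowest without Control replicate 2, and ACVR2A from -0.101 to 0.0106 (without Control replicate 3), and with Nap as the reference for VC, chosen after seeing the data, SMAD7 was at -0.0409 and ACVR2A at 0.0463. In Nap against Control, ID3 ran from -0.291 (without Nap replicate 1; -0.105 without Control replicate 2) to 0.418, ACVR1B from -0.0228 (without Nap replicate 2; -0.00243 without Control replicate 3) to 0.0999, BMP4 from -0.749 to 0.0183 (without Nap replicate 1) and ID1 from -0.140 to 0.0264 (without Nap replicate 2). The cause was not tested.

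Without the filter, 1 member was called in VC against Control, INHBB. All genes called in VC against Control were 3763, and 1908 to 3995 when a library was left out, the low end without VC replicate 3 and 2038 without VC replicate 2. In Nap against Control, all genes called were 1 by DESeq2, 3 without the filter, 1 with all 4 groups in the fit and 0 to 5 when a library was left out, and 0 to 1 genes of the pathway list were then called. Without Control replicate 2, lower calls of the pathway list in VC against Control went from 3 to 7.

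With the replicate number as a block, 8934 genes were called in P4 against VC, 4360 in VC against Control and 42 in Nap against Control, of which 1 was in the pathway list, and ACVR1B was at -0.00193 in Nap against Control. Same-numbered cultures had correlated deviations of 0.0313, 0.0463 and -0.0444 for P4 and VC, and of 0.0568, 0.0754 and -0.0038 for VC and Control, over 15657 genes. The numbers were therefore not taken to pair these samples. For the 2 pairs of Nap and Control the correlations were 0.256 and 0.32, and -0.32 and -0.256 with replicates 1 and 2 swapped. With 2 Nap libraries the deviations mirror each other, so that these values are not separate and do not settle a pairing there. No pairing was used in the main fits. The block changed no call of a member. Members at a few counts (INHBA, INHBB and BMP7) are limited by depth.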

Other observations

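CCN2, a secreted matrix protein and a target of TGF-beta signalling, was the pathway gene with the largest change between the vehicle with ethanol and the untreated cultures. It stood at 4.92, 2.16 and 3.67 CPM in Control, at 79.6, 115 and 94.8 CPM in VC and at 144, 188 and 161 CPM in P4. The groups did not overlap, and the log2 fold change was 4.80 ± 0.24 in VC against Control (SE, edgeR adjusted p = 2.3e-05) and 0.75 ± 0.12 in P4 against VC (SE, edgeR adjusted p = 0.00034). It was at 2.14 and 1.43 CPM in Nap. The gene was named after its values were seen.

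Other genes of the list also differed between VC and Control, and were likewise named after their values were seen. SKI, a repressor of SMAD activity, rose by 0.82 on the log2 scale, TGFB1 by 0.61, and the latent TGF-beta binding protein genes LTBP2, LTBP3 and LTBP4 by 0.53, 0.47 and 0.49. INHBE fell by 0.46, SOSTDC1 by 0.50 and GREM1 by 1.05. TGFBI was called higher as well, at 111, 107 and 118 CPM in Control and 144, 161 and 154 CPM in VC. RGMB was also called higher, at 20.8, 16.7 and 22.0 CPM in Control and 27.4, 26.5 and 25.7 CPM in VC. ACVR1 and BMP8A were further higher calls. That of BMP8A was lost under DESeq2 (adjusted p = 0.11) and without VC replicate 3 (edgeR adjusted p = 0.41), among other settings. The calls of LTBP2 and GREM1 were lost without VC replicate 2 (edgeR adjusted p = 0.064 and 0.11) or VC replicate 3 (0.075 and 0.063), that of GREM1 with Nap as the reference (0.13), and that of SOSTDC1 with all 4 groups in the fit (0.059). Of these, SKI and TGFB1 were then lower in P4 than in VC, by 0.37 and 0.55 on the log2 scale, and INHBE was higher by 2.53. Both comparisons use the VC libraries, so that these opposite directions are not independent of each other. TGFB1 in P4 was not called against Control (log2 fold change 0.0509, edgeR adjusted p = 0.8) or Nap (0.227, edgeR adjusted p = 0.29). SKI stood at 31.4, 40.1 and 34.2 CPM in P4, above the Control libraries at 30.8, 25.4 and 21.8 CPM. For these 2 genes P4 was thus lower relative to VC only.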
